A study of Mus musculus with 10 samples.

Results

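Ketone bodies are small acids that carry fat-derived energy between tissues, and 5 genes that move, oxidise, activate and cleave them were followed here in mouse jejunum: Slc16a1, Bdh1, Bdh2, Oxct1 and Acat1. They were taken by their known roles out of 22180 genes measured, and all 5 were found. The rule takes, for each gene, the probe set with the highest mean over all 10 arrays. Each of the 5 had exactly 1 probe set under its own symbol, so mean intensity decided nothing among them. The genes were picked with earlier results of these data known, and the values below describe them rather than test a choice made blind.

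Both groups of mice were Pcyt1aLoxP/LoxP females of 10 to 12 weeks, carrying floxed alleles of the gene for the rate-limiting enzyme of phosphatidylcholine synthesis by the CDP-choline route. The Fed Knockout mice also carried VilCreERT2, a tamoxifen-activated Cre driven by the villin promoter of the intestinal epithelium, and the Fed Control mice did not. All received tamoxifen for 5 days and high-fat food for 3 days, then an overnight fast and 2 hours of high-fat refeeding, and 3 cm of mid small intestine were taken with all layers of the wall. There were 5 arrays per group. Cre was present in 1 group alone, so its own effect and the loss of Pcyt1a cannot be told apart, and the labels do not state that each array is a separate animal. The p-values below therefore rest on array-to-array spread, part of which may be technical.

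Ketone bodies are made in mitochondria from acetyl-CoA. The thiolase encoded by Acat1 takes part in forming acetoacetate, and Bdh1 reduces acetoacetate to beta-hydroxybutyrate. In tissues that burn ketone bodies, succinyl-CoA:3-oxoacid CoA-transferase, encoded by Oxct1, puts coenzyme A on acetoacetate, and Acat1 then splits acetoacetyl-CoA to acetyl-CoA. Hepatocytes make ketone bodies and lack Oxct1, so they export them for other tissues to use.

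Promoter sequence is shown for Oxct1 (higher in all knockouts), Bdh2 (lower in all knockouts) and the carrier gene Slc16a1. All knockouts were higher for 1.2% of all genes and lower for 1.56%. None of the 5 genes passed the test over all genes described below. Of the 5 genes, 4 had a window in the RefSeq promoter table (GRCm38.p6), and Acat1, also lower in all knockouts, had none. The 250 bases before the annotated start are given in the direction of transcription, in lower case, with capitals marking matches, on either strand, to the motifs searched:
Oxct1, chr15:4026178-4026427, plus strand: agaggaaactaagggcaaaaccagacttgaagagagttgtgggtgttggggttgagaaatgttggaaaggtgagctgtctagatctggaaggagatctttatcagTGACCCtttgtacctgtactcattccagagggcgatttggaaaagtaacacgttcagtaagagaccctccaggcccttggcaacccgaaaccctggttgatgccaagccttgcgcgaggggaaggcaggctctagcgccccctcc
Bdh2, chr3:135280971-135281220, plus strand: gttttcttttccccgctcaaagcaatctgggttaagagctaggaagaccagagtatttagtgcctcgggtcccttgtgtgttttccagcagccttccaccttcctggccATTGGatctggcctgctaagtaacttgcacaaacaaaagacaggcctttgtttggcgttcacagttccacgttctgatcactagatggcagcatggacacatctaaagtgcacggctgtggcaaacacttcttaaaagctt
Slc16a1, chr3:104638414-104638663, plus strand: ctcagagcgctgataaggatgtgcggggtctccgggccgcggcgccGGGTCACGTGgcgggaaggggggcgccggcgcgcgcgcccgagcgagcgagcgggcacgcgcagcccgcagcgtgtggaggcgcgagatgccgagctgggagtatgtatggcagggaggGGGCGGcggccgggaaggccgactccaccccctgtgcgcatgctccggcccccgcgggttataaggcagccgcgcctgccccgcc
The motifs were the nuclear receptor half-site AGGTCA with its variant GGGTCA, the E-box CACGTG, the box spelled CCAAT, the TATA box in the form TATAAA, the GC box GGGCGG, the cAMP response element TGACGTCA and the C/EBP-ATF composite TGATGNAAT. The Oxct1 window held 1 GGGTCA on the minus strand, its first matching base 145 before the start. The Bdh2 window held 1 CCAAT on the minus strand, 141 before the start. Bdh1, whose groups overlapped, had 2 windows that are not shown. The first held GGGTCA 102 before the start, and the other held no match. The Slc16a1 window held GGGTCA 204 before the start, CACGTG 200 before it, which shares letters with that GGGTCA, and GGGCGG 85 before it. Of 32851 promoter windows of that length, GGGTCA was present in 11.6%, CCAAT in 33.8%, CACGTG in 6.02% and GGGCGG in 32.7%. The Slc16a1 window was GC-rich, with 76.4% G and C and 37 CpG pairs, against 52% and 6 in Oxct1, 48% and 5 in Bdh2, and medians of 52.4% and 6 over all windows.

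The labelled tissue was checked against markers. All 12 enterocyte markers were bright (mean log2 intensity 11.18 to 13.76, where the array medians over all probe sets were 5.52 to 5.59), and 4 measured pancreatic acinar markers were dim (5.01 to 5.87). The 6 liver markers ran from 4.40 to 11.51. Of these, Alb, the albumin gene, averaged 5.29 and was dim in these pieces, and Cps1 was the brightest. Pcyt1a was lower in every knockout array, at 7.24 to 7.66 on the log2 scale against 8.95 to 9.51 in controls, a difference of -1.71 (SE 0.11, limma adjusted p = 6.51e-05). Arrays correlated with each other at 0.972 to 0.993 across genes, and no 2 arrays were identical.

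Oxct1, the committing enzyme of ketone body use, had the largest difference in means of the 5. Its log2 intensity (probe set 17309802) was 9.75, 8.86, 8.58, 9.04 and 8.36 in knockouts 1 to 5 and 8.04, 7.83, 8.22, 7.88 and 7.82 in controls 1 to 5. Every knockout lay above every control, with knockout 1 far up and knockout 5 closest to control 3. Group means were 8.92 ± 0.53 (SD, n = 5) and 7.96 ± 0.17 (SD, n = 5). The difference was 0.96 on the log2 scale (SE 0.21, 95% confidence interval 0.50 to 1.43), or 1.95-fold higher in knockout (1.42 to 2.69). Its p over all genes was 0.0842 (limma, Benjamini-Hochberg adjusted), which does not pass 0.05, and it ranked 168 of 22180 by p.

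Acat1, the mitochondrial thiolase that acts at both ends of the route, stood the other way. Its log2 intensity (probe set 17527123) was 10.43, 10.27, 10.17, 10.35 and 9.44 in knockouts 1 to 5. In controls 1 to 5 it was 10.68, 10.58, 10.94, 10.65 and 10.59. All knockouts were below all controls, and knockout 5 was far below the other 4. The mean was 10.13 ± 0.40 (SD, n = 5) against 10.69 ± 0.15 (SD, n = 5), a difference of -0.55 (SE 0.17, interval -0.91 to -0.19), or 1.47-fold lower (1.14 to 1.89). The limma adjusted p was 0.196. Without knockout 5 the difference was -0.38 (SE 0.10, adjusted p = 0.138).

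Oxct1 and Acat1 act in sequence, so their log2 values were also subtracted within each array. The level of this ratio depends on the probes and has no meaning of its own, and the size of its shift between groups may also depend on them. It was -0.68, -1.41, -1.59, -1.30 and -1.09 in knockouts 1 to 5, and -2.65, -2.75, -2.72, -2.77 and -2.77 in controls 1 to 5. The controls agreed to within an SD of 0.052, although Oxct1 alone had an SD of 0.17 there and Acat1 of 0.15. The group means, -1.21 and -2.73, differed by 1.52, and knockout 5, low for both genes, lay inside the range of the other knockouts. This difference was picked from the values above and carries no test.

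Bdh1 interconverts acetoacetate and beta-hydroxybutyrate in mitochondria, in both synthesis and use. Its log2 intensity (probe set 17324643) was 8.06, 7.69, 7.79, 7.99 and 7.54 in knockouts 1 to 5 and 7.77, 7.34, 8.08, 7.70 and 7.84 in controls 1 to 5. The groups overlapped almost fully. The difference was 0.068 (SE 0.14, limma adjusted p = 0.896), and the interval of -0.23 to 0.37 leaves room for 1.18-fold lower to 1.29-fold higher. Leaving out control 2, the lowest array, turned the sign (-0.033, adjusted p = 0.956).

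Bdh2 encodes a cytosolic relative of Bdh1 that was named for the same reaction and was later linked to a siderophore-like iron carrier. It was dim, and its log2 intensity (probe set 17402846) was 5.41, 5.50, 5.48, 5.43 and 5.57 in knockouts 1 to 5. Controls 1 to 5 were at 5.74, 5.67, 5.64, 5.58 and 5.79. The knockouts were all lower, but knockout 5 and control 4 differed by little (5.57 and 5.58). The difference was -0.20 (SE 0.076, interval -0.37 to -0.04, adjusted p = 0.309 by limma), or 1.15-fold lower. Its values lay near the array medians, and detection calls were not used here.

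Slc16a1 encodes the monocarboxylate transporter MCT1, which carries lactate, pyruvate, butyrate and ketone bodies with a proton. Its log2 intensity (probe set 17401335) was 9.94, 9.56, 9.55, 9.76 and 9.16 in knockouts 1 to 5 and 9.83, 9.78, 10.09, 9.36 and 10.17 in controls 1 to 5. The groups overlapped, with knockout 5 lowest and control 5 highest of all. The difference was -0.25 (SE 0.17, interval -0.62 to 0.12, limma adjusted p = 0.605). Bsg, which encodes basigin, the partner that brings MCT1 to the membrane, differed by 0.075 (SE 0.069, adjusted p = 0.733).

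**Figure D1:**
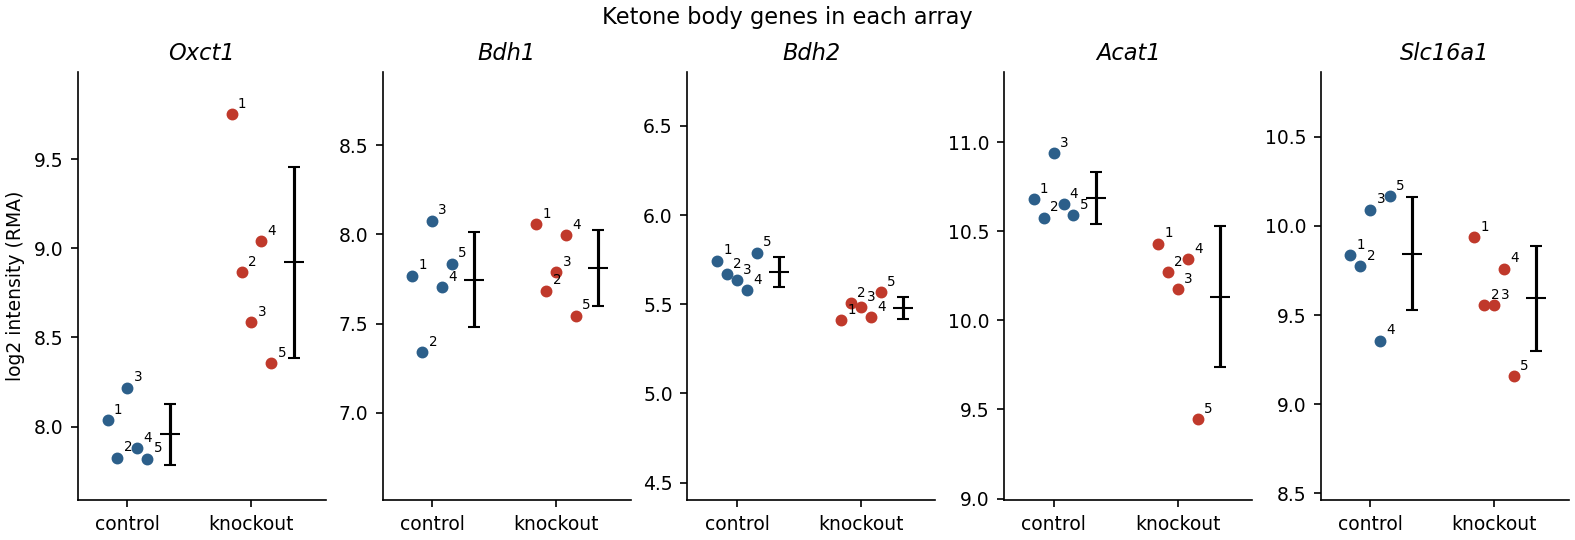
Log2 RMA intensity of the 5 ketone body genes in each array (points, numbered by replicate), with the mean and SD of 5 arrays as bars. Oxct1 is higher in all knockouts, Acat1 and Bdh2 are lower in all knockouts, and Bdh1 and Slc16a1 overlap.

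None of the 5 passed the limma test over all genes, where 76 of 22180 passed (0.343%, with 0.171% in each direction), and 3 of the 5 had an unadjusted p under 0.05 (12.1% of all genes did), 1 higher (5.82% of all genes) and 2 lower (6.25%). Arrays of the groups did not overlap for 3 of the 5, against 2.77% of all genes: 1 with all knockouts higher (1.2% of all genes) and 2 with all knockouts lower (1.56%). Because the genes were picked with results known, nothing is read from these shares. The median difference of the 5 was -0.20, and over all genes it was -3.5e-04. In whole tissue, fewer cells of a type and less RNA per cell cannot be told apart.

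Within a group, 4 of the 5 genes tended to go up and down in the same arrays. Knockout 5 had the lowest knockout value of Oxct1, Bdh1, Acat1 and Slc16a1, and knockout 1 the highest of all 4. Among controls, control 3 was highest for Oxct1, Bdh1 and Acat1 and second to control 5 for Slc16a1. Bdh2 ran the other way in knockouts, lowest in knockout 1 and highest in knockout 5. As a description over 10 arrays that share their normalisation, Pearson r of the deviations from group means was 0.654 to 0.775 for the 6 pairs among the 4 genes, and -0.60 to 0.0072 for the 4 pairs with Bdh2.

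**Figure D2:**
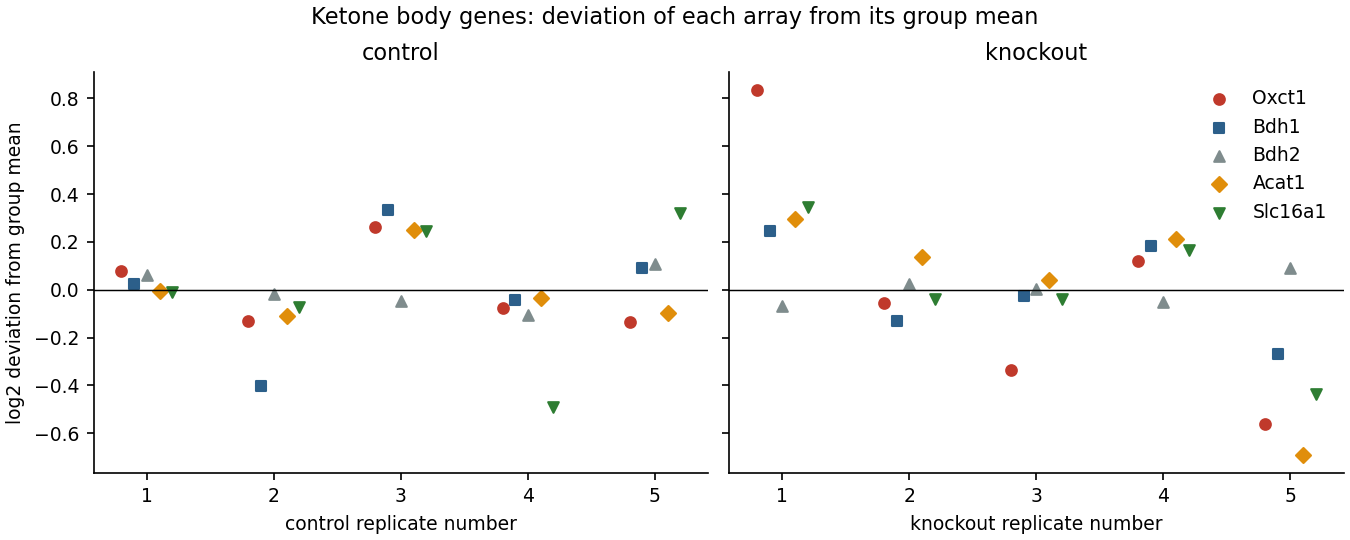
Log2 deviation of each array from its group mean (vertical axis) by replicate number (horizontal axis), for the 5 genes in controls (left) and knockouts (right). In knockout 1 Oxct1, Bdh1, Acat1 and Slc16a1 all lie above their mean, in knockout 5 all 4 lie below, and Bdh2 shows the reverse.

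The genes whose array-to-array pattern was most like each of these were searched among genes brighter than the median gene, by Pearson r of deviations from group means over 10 arrays. Ppt1, the lysosomal palmitoyl-protein thioesterase gene, was nearest to Oxct1 (r = 0.945). Ppt1 itself differed between groups by 0.75 (SE 0.19, limma adjusted p = 0.125), with all knockouts higher. Mrps12, a mitochondrial ribosomal protein gene (0.927), and Dnajc22 (0.911) came next and differed by 0.21 and 0.052. Pmpcb, a subunit of the mitochondrial processing peptidase, was nearest to Acat1 (0.987), followed by Jmjd8 (0.985) and Erp44 (0.978). Nearest to Bdh1 were Zfp809 (0.967), Epb41l5 (0.959) and Bri3bp (0.95). Bdh2 was followed most closely by Cyp4f16 (0.962), Igsf5 (0.928) and Dgkd (0.914), and Slc16a1 by Pnn (0.98), Slc39a7 (0.974) and Rpia (0.972). Of these 15 genes 0 passed the limma test. The search covered 10405 genes.

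Around the 5 genes, 54 pathway genes were listed in 6 role groups and 50 were measured, of which 46 are other genes than these 5. By limma 0 of the 46 passed over all genes, 13 had an unadjusted p under 0.05 (4 higher, 9 lower, where all genes gave 12.1%, with 5.82% higher and 6.25% lower), and 36 of the 46 (78.3%) had lower values in knockout, as did 50.1% of all genes. Nothing particular to a list is read from its counts. Their median difference was -0.11, against -3.5e-04 for all genes. In ketone body synthesis, 5 genes were listed and 3 measured: Acat1 and Bdh1, which also count in ketone body use, and Hmgcll1. Hmgcll1 was dim (mean 4.71) and differed by 0.12 (SE 0.11, limma adjusted p = 0.712). The list's median over these 3 genes, 0.068, was the Bdh1 value. By limma 0 passed, and 1 had an unadjusted p under 0.05 (12.1% of all genes did).

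Ketone body use counted 7 measured genes with a median of -0.14, and 0 passed. An unadjusted p under 0.05 was found for 3, 2 of them higher (12.1% of all genes, 5.82% higher). Aacs encodes acetoacetyl-CoA synthetase, which activates acetoacetate in the cytosol for lipid synthesis, as Oxct1 does in mitochondria for oxidation. Its log2 intensity was 7.01, 7.22, 7.20, 7.48 and 7.06 in knockouts 1 to 5 and 6.85, 6.79, 6.99, 6.54 and 6.53 in controls 1 to 5. Aacs, like Oxct1, had higher values in all knockouts, as did 1.2% of all genes. The Aacs difference was 0.46 (SE 0.12, limma adjusted p = 0.132), and its knockout 1 and control 3 were close. Nothing about the 2 routes is read from this. Oxct2a and Oxct2b, testis-type relatives of Oxct1, and Acat3, a relative of the cytosolic thiolase, were dim (means 4.41, 5.05 and 4.26) and differed by -0.16 (SE 0.20), -0.14 (SE 0.10) and -0.16 (SE 0.20). Oxct2a and Oxct2b are close relatives, and their probes may not tell them apart.

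Of 13 measured monocarboxylate carriers and partners, 0 passed by limma and 1 had an unadjusted p under 0.05 (12.1% of all genes did). The median difference was -0.11, and 10 of 13 had lower values (50.1% of all genes did). Slc16a6, whose zebrafish counterpart exports ketone bodies from the liver, was at 10.16, 8.72, 8.73, 8.83 and 8.54 in knockouts 1 to 5 and at 9.59, 9.59, 9.63, 9.22 and 10.43 in controls 1 to 5. Knockout 1 was the exception, above 4 of the 5 controls, and the other 4 knockouts were below all controls. The difference was -0.69 (SE 0.29, adjusted p = 0.371), and without knockout 1 it was -0.98 (SE 0.20, limma adjusted p = 0.0369). Without knockout 1, 268 genes were called in all, the most under any setting run. Slc16a3, Slc16a7 and Slc16a4 stood at -0.24 (SE 0.21), -0.19 (SE 0.13) and -0.12 (SE 0.092).

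Among 11 receptors and regulators, 9 had lower values (50.1% of all genes did), with a median of -0.23. By limma 0 passed and 3 had an unadjusted p under 0.05 (12.1% of all genes). Pdk4, a pyruvate dehydrogenase kinase of the fasted state, had the largest difference of the 46, -1.55 (SE 0.42, adjusted p = 0.146). Its knockouts ranged from 7.15 to 9.83 and its controls from 9.69 to 10.09. Without knockout 1 the difference was -1.94 (SE 0.29, limma adjusted p = 0.0116), again among 268 genes called. Cpt1a, the gate of fatty acids into mitochondria, stood at -0.52 (SE 0.21), the lactate receptor gene Hcar1 at 0.29 (SE 0.12) and Fgf21 at -0.27 (SE 0.12). Hcar1 and Fgf21 were dim, with means of 5.65 and 4.96. Hcar2, which encodes the beta-hydroxybutyrate receptor, and Ppara, the fasting regulator, lie outside the naming rule and differed by -0.0029 (SE 0.13) and -0.092 (SE 0.22).

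The supply of acetyl-CoA from fatty acids had 9 of 11 values lower in knockout (50.1% over all genes), a median of -0.14 and 0 past the limma test, with 6 at an unadjusted p under 0.05 (12.1% over all genes). Hadhb, a subunit of the trifunctional protein, Slc25a20, the carnitine-acylcarnitine carrier, and Acaa2, a thiolase of the last oxidation step, stood at -0.32 (SE 0.081), -0.40 (SE 0.11) and -0.54 (SE 0.16). The Hadhb probe set was dim, at 5.44 in knockout and 5.76 in control, near the array medians. Acadl, the long-chain acyl-CoA dehydrogenase gene, went the other way at 0.52 (SE 0.13). Of 7 measured genes that activate short-chain acids 0 passed, 2 had an unadjusted p under 0.05 (12.1% over all genes) and the median was -0.039. Acsm5 was at -0.65 (SE 0.18), and Acss1, which makes acetyl-CoA from acetate in mitochondria, at 0.58 (SE 0.23). Acss2 and Acss3 differed by -0.13 (SE 0.15) and -0.058 (SE 0.099).

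**Figure D3:**
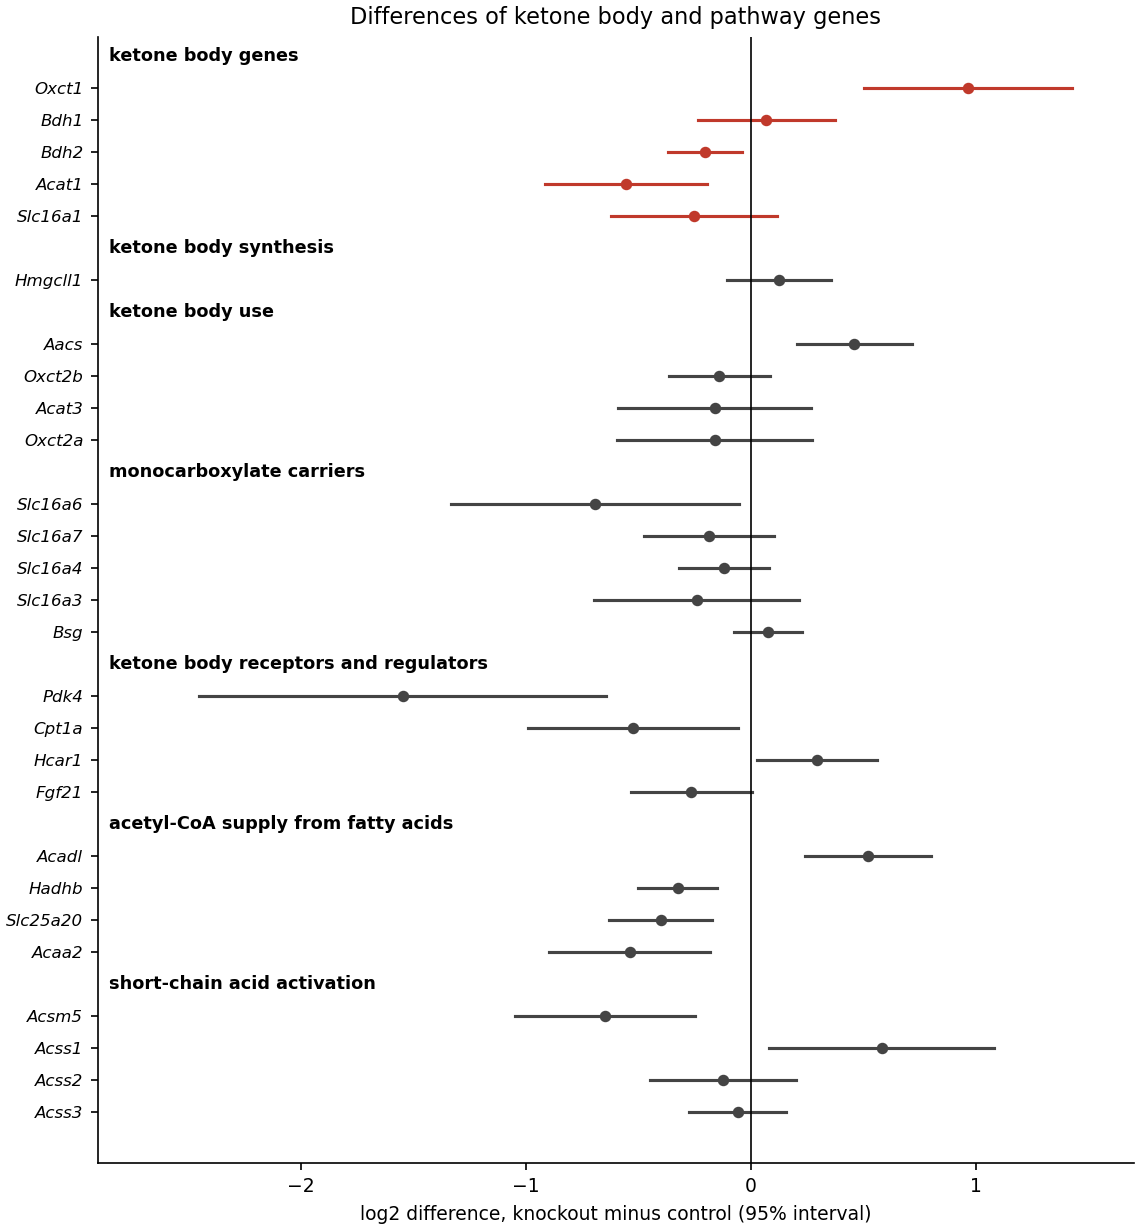
Log2 difference, knockout minus control, with its 95% confidence interval from the limma fit for the 5 ketone body genes (red) and the pathway genes with the smallest p in each list, with Bsg (grey). Oxct1 lies at 0.96 and Acat1 at -0.55, and Pdk4 at -1.55 has the widest interval.

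Marker lists of other cell types and of the distal intestine were read beside these values. Over all genes 0.343% passed the limma test and 50.1% had lower values in knockout. An unadjusted p under 0.05 was found for 12.1% (5.82% higher, 6.25% lower). Of the 11 ileum markers 9 were measured, none was at 0, and 8 had higher values in knockout. By limma 0 passed (4 had an unadjusted p under 0.05 with higher and 1 with lower values). The log2 of their summed intensity was 12.95 to 14.43 in knockout and 13.59 to 14.21 in control. The mean of the centred values was -1.03, 0.99, 0.57, 0.60 and 1.11 in knockouts 1 to 5, against -0.70 to 0.059 in controls. Knockout 1, the knockout with the lowest ileum mean, thus had the highest Oxct1, and knockout 5, with the highest, the lowest Oxct1 and Acat1. The controls did not repeat this. Control 5, with their lowest ileum mean, had an Oxct1 of 7.82, and control 2, with their highest, one of 7.83. With the ileum mean as a covariate the Oxct1 difference was 1.43 (SE 0.16, limma adjusted p = 0.0165), where 5 genes were called in all. Under it the Bdh1 difference was 0.30 (SE 0.14, adjusted p = 0.651), against 0.068 without it. That of Acat1 was -0.32 (SE 0.19, adjusted p = 0.722) and that of Slc16a1 0.0020 (SE 0.18, adjusted p = 1.00). Among 10 smooth muscle markers, none at 0, 6 had lower values in knockout, and their mean was -0.31 to 0.17 in knockout and -0.34 to 0.98 in control. With it as a covariate Oxct1 was at 0.96 (SE 0.22). All 8 enteroendocrine markers had lower values in knockout and 2, Gip and Sst, passed the limma test. Their mean was -0.42 to 0.061 in knockout and 0.13 to 0.28 in control. The log2 of their summed intensity was 10.91 to 11.38 against 11.56 to 11.77. All 6 tuft cell markers had lower values and 0 passed by limma, with 6 at an unadjusted p under 0.05. Their mean was -0.36 to -0.12 in knockout and 0.055 to 0.38 in control. The log2 of their summed intensity was 8.58 to 8.79 against 8.99 to 9.29. All 7 stroma markers had higher values and 0 passed by limma, with 3 at an unadjusted p under 0.05. Their mean was -0.089 to 0.58 in knockout and -0.87 to 0.14 in control. The log2 of their summed intensity was 10.26 to 11.01 against 9.46 to 10.63. Of 7 goblet markers 6 had lower values, 4 at an unadjusted p under 0.05, and of 9 leukocyte markers 7 had lower values, 3 at that level. Of 10 measured proliferation markers 7 had higher values. At that level 4 of them were higher and 1 was lower. By limma 0 passed in the goblet, leukocyte and proliferation lists. None of these markers was at 0. The part of the enteroendocrine, tuft, stroma, goblet, leukocyte and proliferation lists in the ketone body values was not tested.

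**Figure D4:**
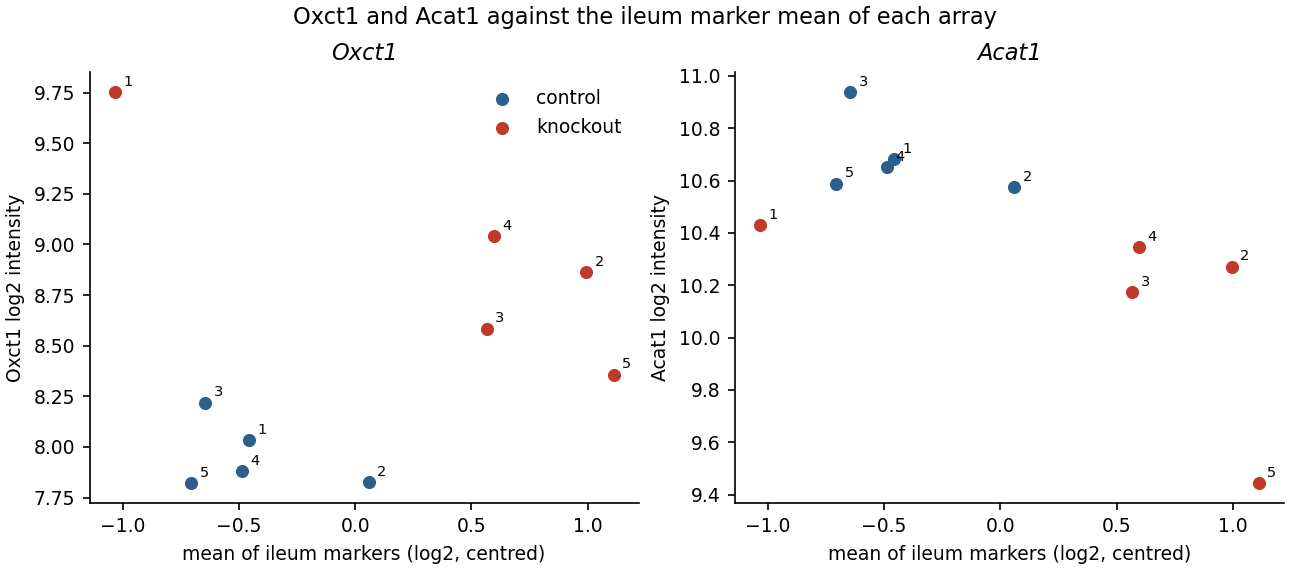
Log2 intensity of Oxct1 (left) and Acat1 (right) against the centred mean of 9 ileum markers in each array, numbered by replicate. Knockout 1 sits at the lowest ileum mean with the highest Oxct1, and the other knockouts lie to the right of the controls.

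The Oxct1 difference was positive under all 21 other ways of processing and passed under 2 of them, the ileum covariate and the omission of knockout 1 (0.76, SE 0.14, limma adjusted p = 0.0332, among 268 genes called). Without knockout 1 both the difference and its SE were smaller. Both passes involve knockout 1, which had the lowest ileum marker mean of all arrays (-1.03) and the highest Oxct1 (9.75). The other knockouts had ileum means of 0.57 to 1.11, and the controls reached at most 0.059. The covariate fit thus compares groups that share little of its range. The adjusted p otherwise ran from 0.0505, without knockout 5, to 0.196, without knockout 2. Since its groups do not overlap, leaving out an array could not turn the sign.

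**Figure D5:**
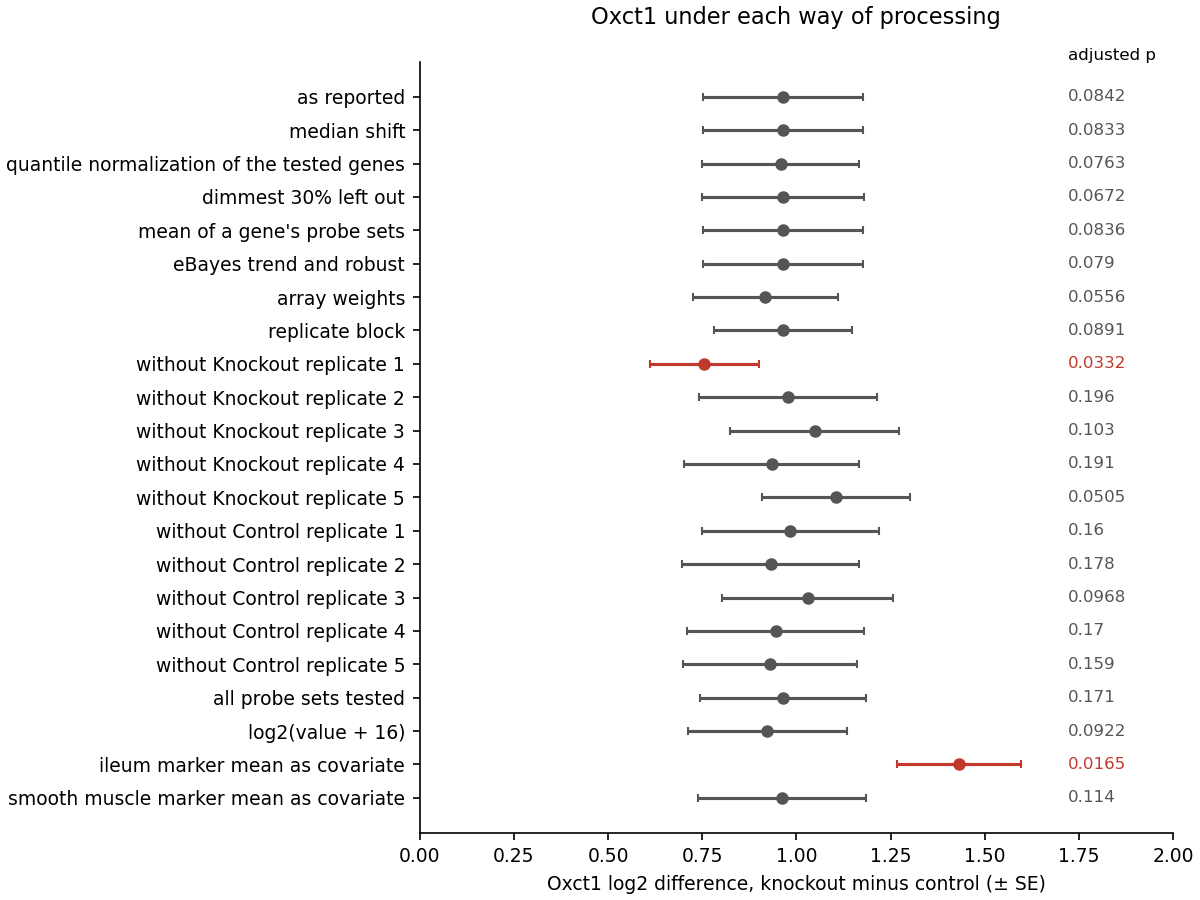
Log2 difference of Oxct1, knockout minus control, with its SE, under each way of processing (rows), with the limma adjusted p at the right; red marks adjusted p under 0.05. Values run from 0.76 without knockout 1 to 1.43 with the ileum covariate.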

How the data were processed

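Total RNA, 400 ng per array, was biotin-labelled by the WT Plus method, per the labels' protocols. The authors used Affymetrix Expression Console 1.4.1.46 and RMA, per the submitters' processing notes. Their deposited intensities were linear (1.8 to 15278.7), and log2 was taken first. Because RMA equalises array distributions, a change common to most genes is invisible, and the number of arrays limits precision.

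Of 41345 probe sets, 23521 carried 1 symbol in GEO's platform annotation, giving 22180 genes by the probe set with the highest mean. Groups, from the sample titles, were compared with limma 3.58.1 (R 4.3.3; lmFit, eBayes) with Benjamini-Hochberg over all genes and a threshold of 0.05. The fit was also run on simulated arrays, in which genes varied independently and with equal spread in both groups. The genes here did not all do so, and no result rests on that run. Named were the 5 genes, Pcyt1a, Bsg, in each list the 4 others with the smallest p, and for each gene the 3 most alike. Slc5a8, Hcar2, Ppara, Gip, Sst, Cps1, Angptl4 and Slc16a12 were added after their values were seen. Some items are not reported here. Members, lists and rules were chosen with earlier results of these data known. Alternatives covered normalization, filters, probe sets, variance model, array weights, replicate block, omitted arrays, pseudocount and 2 marker covariates.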

Additional observations from a re-analysis of the deposited data

Results flagged for a closer look

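In 146 groups of 5 arrays examined (73 genes or derived values in 2 groups), 11 had 1 array standing apart from the other 4 by more than 0.71 of the group's range, where chance flags about 1 in 20. In knockout 5, Acat1 was lowest at 9.44, the next array being at 10.17, and Erp44, a gene chosen for its likeness to Acat1, was lowest at 8.96. Knockout 1 had the highest Slc16a6 of its group at 10.16, the lowest Slc5a8 at 5.71 and the lowest ileum marker mean at -1.03. Control 5 had the highest Pdk4 at 10.09 and the lowest Acss1 at 8.34. Control 3 was highest for Pmpcb at 9.03, and control 4 had the highest smooth muscle marker mean at 0.98. Among pathway genes not named above, Angptl4 was lowest in knockout 4 at 7.69, the next array being at 8.62, and Slc16a12 was highest in control 3 at 5.87. The causes were not tested.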

How the results depend on the processing

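Pcyt1a passed under all 21 alternatives, and Acat1 and Bdh2 had lower values under all 21 and passed under none. Oxct1 passed at 0.76 without knockout 1 and at 1.43 with the ileum covariate. With 1 array left out it ran from 0.76 to 1.11, Acat1 from -0.63 to -0.38, Bdh1 from -0.033 (without control 2) to 0.15 and Slc16a1 from -0.37 to -0.14. With the ileum covariate Slc16a1 turned to 0.0020 and Bdh1 stood at 0.30, its highest value under any alternative. The count of 76 called genes was 142 with array weights, 39 over all probe sets, 5 with the ileum covariate, 261 at a threshold of 0.1 and 11 to 268 with 1 array left out. Leaving out the dimmest 30% of genes, which removes dim list members, gave medians of -0.24 for ketone body synthesis, 0.068 for ketone body use and -0.13 for short-chain acid activation. With 1 array left out the ketone body use median ran from -0.18 to 0.033. With the replicate block 27 genes were called, and it changed no call on the 5 genes. Deviations of same-numbered arrays correlated at -0.14 to 0.13. No shared effect of the numbers was seen, which cannot show that the samples were unpaired. Causes were not tested.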

Other observations

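Slc5a8 encodes a sodium-coupled carrier that takes up lactate, short-chain fatty acids and ketone bodies, and it was picked here after its values were seen. Its log2 intensity was 5.71, 10.42, 9.98, 9.88 and 10.67 in knockouts 1 to 5 and 9.93, 10.24, 8.24, 8.62 and 5.63 in controls 1 to 5. Knockout 1 and control 5, the arrays with the lowest ileum marker means, had the lowest Slc5a8. The difference between groups was 0.80 with an SE of 0.99 (limma adjusted p = 0.810), so spread within the groups exceeded it.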
